A study of Mus musculus with 20 samples.

Results

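The genes described here encode the machinery that copies DNA: 55 genes of origin licensing, the CMG helicase, the replicative polymerases, the sliding clamp and its loader, nucleotide supply, chromatin copying and fork protection. They were taken by name from the 48795 genes of a table of log2 normalized counts, and all 55 matched 1 Ensembl gene each. Bulk mRNA sequencing of whole mouse embryonic hearts at E13.5 (E, embryonic day) gave 20 libraries, 1 per heart: 10 WT, 5 Dp1Tyb and 5 Dp1TybDyrk1a+/+/-. Dp1Tyb mice, a model of Down syndrome, carry a tandem duplication of chromosome 16 from Lipi to Zbtb21 on a C57BL/6J background. Dp1TybDyrk1a+/+/- embryos carry the same duplication together with a null allele of Dyrk1a, Dyrk1a tm1Mla, so that every duplicated gene has an extra copy except functional Dyrk1a, which encodes a protein kinase. Per the study's methods the Dp1TybDyrk1a+/+/- mice descend from 1 pup in which a crossover joined both alleles on a chromosome, and were bred as a strain apart from Dp1Tyb, with WT littermates as controls. No label says which WT hearts were littermates of which mutant, so each mutant group was compared with the same 10 WT hearts. The direct comparison of the mutant groups is therefore also one of separately bred strains, and genotype and strain cannot be told apart in it. Each comparison with WT may likewise include WT hearts from litters of the other strain. Hearts are called by their library numbers, A1 to A20.

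Eukaryotic cells copy their DNA once per cycle. In G1 the origin recognition complex, CDC6 and CDT1 load the MCM2-7 ring onto DNA, which is called licensing. At the start of S phase the kinase CDC7 with its activator DBF4, together with MCM10 and other factors, convert the ring into the active CMG helicase (CDC45, MCM2-7 and GINS). Polymerase alpha with primase then starts each new strand, polymerases delta and epsilon extend it, and the clamp PCNA tethers them. Many of these genes are transcribed in late G1 under E2F transcription factors, and embryonic heart muscle at mid-gestation still grows by cell division. In whole hearts, fewer cells in S phase and less RNA per cell cannot be told apart.

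None of the 55 members lies in the duplicated region. Mcm4, Cdc45 and Rfc4 are on chromosome 16 outside it, and Pola1 is on the X chromosome. All 55 had a mean normalized count of at least 100, the lowest being Orc1 with 109.6, and all 55 were among the 15304 genes tested. The spread between WT hearts was small: the SD of a member over the 10 WT hearts ran from 0.022 (Rpa3) to 0.11 (Rpa2) on the log2 scale, with a median of 0.048, beside 0.054 for all genes tested. The values are not per length, so levels are not compared between genes.

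Some properties of the hearts bear on what follows. Heart A15 of the Dp1TybDyrk1a+/+/- group stood apart: over all genes tested its values lay a median of 0.10 from the median of the 20 hearts, beside 0.061 for WT heart A10 and 0.026 to 0.041 for the other 18. The markers of cardiomyocytes, endocardium, epicardium and cushion mesenchyme were measured in every heart, while the summed level of the liver and lung markers reached at most a log2 value of 5.30. Xist, the RNA of the inactive X chromosome, was high (log2 value of 12.98 or more) in 3 of 10 WT hearts, 4 of 5 Dp1Tyb hearts and 1 of 5 Dp1TybDyrk1a+/+/- hearts, so embryo sex was not balanced between the groups. The lanes were shared by all 3 groups, with 4, 4 and 2 WT hearts, 2, 2 and 1 Dp1Tyb hearts and 1, 1 and 3 Dp1TybDyrk1a+/+/- hearts in lanes 3, 6 and 7. Dyrk1a, counted over the whole gene, was above all WT hearts in every heart of both mutant groups: 11.65, 11.66, 11.71, 11.75 and 11.67 in Dp1Tyb hearts A3, A4, A6, A7 and A12, and 11.74, 11.70, 11.85, 11.78 and 11.75 in Dp1TybDyrk1a+/+/- hearts A9, A14, A15, A17 and A18, against 11.28 to 11.43 in WT. The null allele is an internal deletion of exons and its transcript can still be counted, so this value does not check the genotype of the Dp1TybDyrk1a+/+/- hearts. Folds in these deposited values were small where an extra copy is present: the 95 genes tested in the duplicated region had a median fold of 1.23 in Dp1Tyb versus WT, and the 34 of them with a mean count of at least 1000 had one of 1.28. How far the folds of the members are reduced in the same way was not tested.

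Replication genes were slightly lower in Dp1Tyb than in WT hearts. The log2 fold change was below 0 for 53 of the 55 members, with a median of -0.070 and a range of -0.13 to 0.0069, whereas 51.5% of all genes tested were below 0 and their median was -0.0019. The members with a value above 0 were Gins2 (0.0022) and Tk1 (0.0069). At a Benjamini-Hochberg adjusted P-value under 0.05 in limma, 7 members were decreased and 0 were increased, beside 1.27% of all genes tested that were decreased and 1.81% that were increased. These 7 were Mcm10, Dbf4, Pola1, Prim1, Pcna, Rrm1 and Clspn. At an unadjusted P-value under 0.05 there were 26 members, all of them lower in Dp1Tyb, beside 7.8% of all genes tested that were lower at this level. For 5 members (Mcm7, Mcm10, Rrm1, Rrm2 and Clspn) every Dp1Tyb heart was below every WT heart, beside 1.12% of all genes tested.

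**Figure D1:**
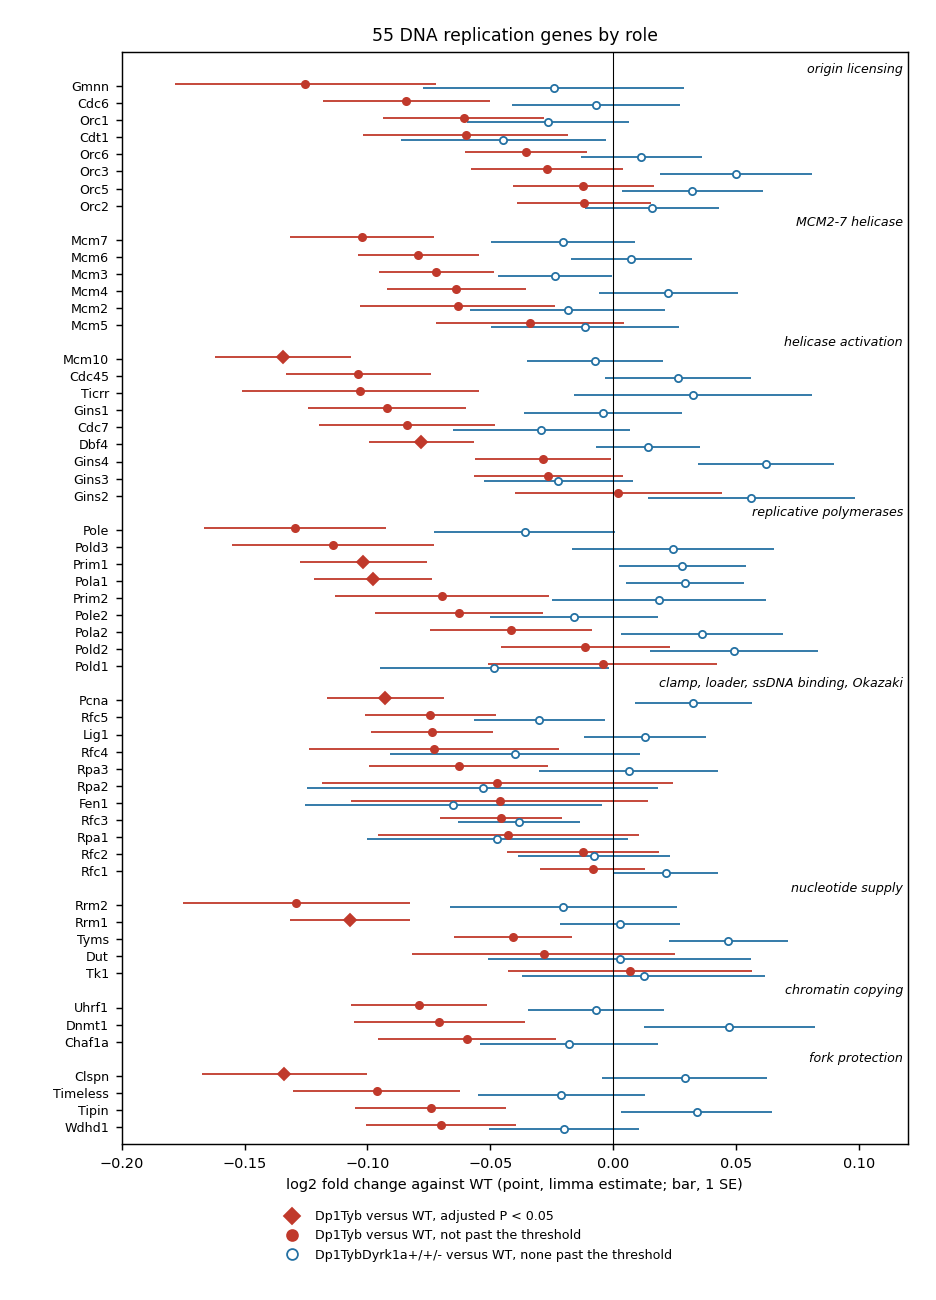
Log2 fold changes of the 55 members against WT, grouped by role, with 1 SE. Filled symbols are Dp1Tyb versus WT (diamonds, adjusted P-value under 0.05) and open symbols are Dp1TybDyrk1a+/+/- versus WT. The filled symbols lie left of 0 for 53 members, and the open symbols lie on either side of it.

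The same genes in Dp1TybDyrk1a+/+/- hearts were spread around the WT level. The log2 fold change against WT was below 0 for 27 of 55 members, with a median of 0.0026. This split changed with single hearts. Without A15, 14 members were below 0 (median of 0.017), and without A17, 32 were (median of -0.011). With hearts weighted by quality, 10 were (median of 0.019). In limma 0 members passed the threshold, beside 0.712% of all genes tested that passed it in either direction. At an unadjusted P-value under 0.05 there was 1 member, Gins4, a subunit of the GINS ring, which was higher (log2 fold change of 0.062, adjusted P-value of 0.47), beside 9.64% of all genes tested in either direction. Tested directly against each other, Dp1Tyb hearts were below Dp1TybDyrk1a+/+/- hearts for 51 of 55 members, with a median log2 fold change of -0.072. Of these, 4 passed the threshold (Pola1, Prim1, Pcna and Clspn), all of them lower in Dp1Tyb, beside 0.738% of all genes tested. The members not lower in Dp1Tyb than in Dp1TybDyrk1a+/+/- hearts were Pold1, Rpa1, Rpa2 and Fen1. The hearts of the 2 groups did not overlap for 8 members (Mcm10, Dbf4, Pola1, Prim1, Pold3, Pcna, Rrm1 and Clspn), all lower in Dp1Tyb, beside 3.55% of all genes tested. The comparison of Dp1Tyb with WT and the comparison of Dp1Tyb with Dp1TybDyrk1a+/+/- share the Dp1Tyb hearts.

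The number of calls changed when single hearts were left out. With 1 heart left out, the members called in Dp1Tyb versus WT ranged from 1 (without Dp1Tyb heart A4) to 7, and were 3 without A2, A6 or A12 and 4 without A20. The calls over all genes tested, 471 with every heart, ranged from 266 (without A4) to 483 in the same fits. In Dp1Tyb versus Dp1TybDyrk1a+/+/- there were 0 without A4, A6, A12, A17 or A18, 1 without A9, 2 without A3, and 9 without A15, where Mcm6, Mcm7, Mcm10, Rrm2 and Tipin joined the other 4. Calls over all genes tested fell as well, from 178 with every heart to 30, 50, 71, 36 and 93 without A4, A6, A12, A17 and A18, to 104 without A9 and to 77 without A3, while there were 200 without A15. With embryo sex (Xist) as a covariate there were 3 and 0 members, of 245 and 12 genes called in all, and with lane as a covariate 7 and 0, of 461 and 29. The median over the members in Dp1Tyb versus WT was -0.073 to -0.057 in the 15 fits that left out 1 heart, and in Dp1Tyb versus Dp1TybDyrk1a+/+/- it was -0.079 to -0.056 in 10.

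The mean over the 55 members, taken in each heart, showed how each heart stood. In the 10 WT hearts it was 9.73 at the lowest, 9.75 at the median and 9.79 at the highest. In the Dp1Tyb hearts A3, A4, A6, A7 and A12 it was 9.708, 9.687, 9.691, 9.710 and 9.650, each below all 10 WT hearts. In the Dp1TybDyrk1a+/+/- hearts A9, A14, A15, A17 and A18 it was 9.722, 9.779, 9.686, 9.791 and 9.797. Hearts A14, A17 and A18 were thus in the upper part of the WT range or above it, and A9 and A15 were below all WT hearts. The SD between hearts was 0.049 in Dp1TybDyrk1a+/+/-, 0.024 in Dp1Tyb and 0.020 in WT. The difference of the group means was -0.065 between Dp1Tyb and WT, 0.0011 between Dp1TybDyrk1a+/+/- and WT, and -0.066 between Dp1Tyb and Dp1TybDyrk1a+/+/-. Without A15 the differences from WT and from Dp1Tyb became 0.018 and -0.083.

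**Figure D2:**
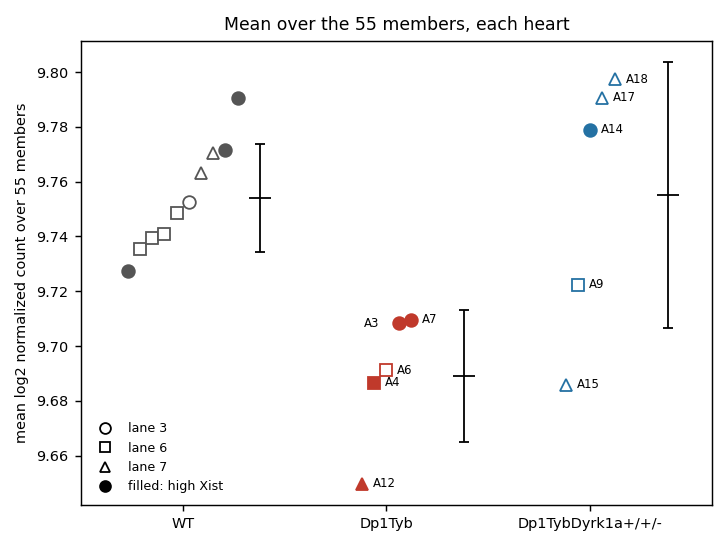
Mean log2 normalized count over the 55 members in each heart, by group. The shape of a symbol gives the lane, filled symbols are hearts with high Xist, and bars give the mean and SD of the group. All 5 Dp1Tyb hearts lie below the lowest WT heart, and the Dp1TybDyrk1a+/+/- hearts run from 9.686 to 9.797.

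Within lanes 3, 6 and 7 the mean over the members in Dp1Tyb differed from WT by -0.052, -0.052 and -0.12, the last of which rests on 1 Dp1Tyb heart (A12) and 2 WT hearts. Among hearts with high Xist the difference was -0.075 (4 Dp1Tyb and 3 WT hearts) and among those with low Xist it was -0.059 (1 and 7 hearts). All Dp1Tyb hearts were below all WT hearts in each of these subsets, which follows from the same order over all hearts and adds nothing to it. Dp1Tyb was also below Dp1TybDyrk1a+/+/- in each lane, by -0.070, -0.034 and -0.11, although in the last lane A15 was the lowest of 3 Dp1TybDyrk1a+/+/- hearts. Among hearts with high Xist this difference was -0.090 (4 and 1 hearts), and among those with low Xist it was -0.058 (1 and 4 hearts). Between Dp1TybDyrk1a+/+/- and WT it was 0.018, -0.019 and -0.0089 in lanes 3, 6 and 7.

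**Figure D3:**
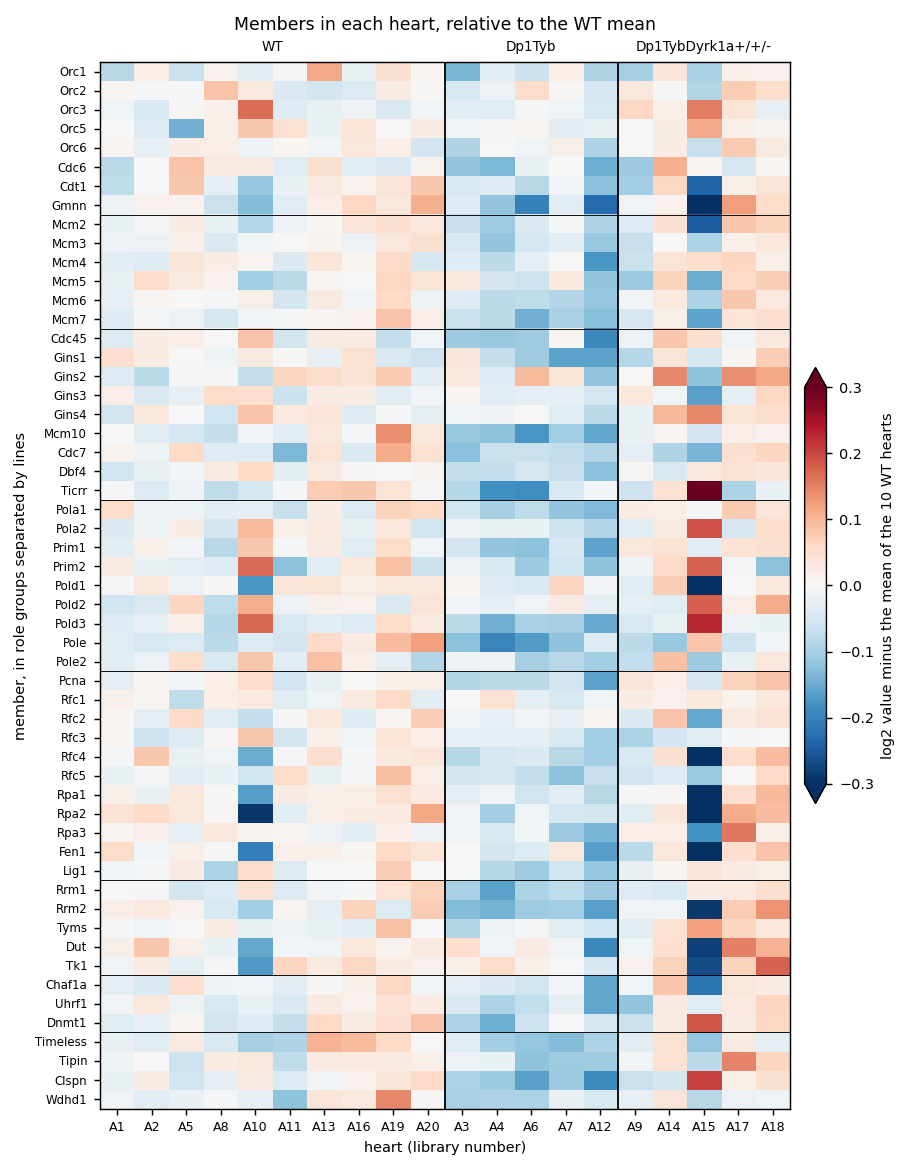
Each member (row) in each heart (column) as its log2 value minus the mean of the 10 WT hearts, with role groups separated by lines and the color scale ending at -0.3 and 0.3. Dp1Tyb columns are mostly blue, while A15 has both the deepest blue and the deepest red cells, from -0.47 to 0.30.

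Heart A12 was below the WT mean for 54 members and was the lowest of all 20 hearts for 18. Heart A15 was different, since it was the lowest of 20 hearts for 21 members and the highest for 10. Among its lowest values were Rpa1, Rpa2, Rpa3, Fen1, Rrm2, Dut and Tk1, and among its highest Ticrr, Pola2, Prim2, Pold2, Pold3, Dnmt1 and Clspn. WT heart A10 was the lowest WT heart for Rpa1, Rpa2 and Fen1 as well, with log2 values of 10.97, 9.23 and 9.10. The part of RNA quality in these hearts was not tested.

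Some marker lists of cell types had median log2 fold changes as large as the members' own median, although none of the markers of cardiomyocytes (8 genes), endothelium and endocardium (6), epicardium (5), fibroblasts and cushion (6), smooth muscle (4), erythroid cells (8), macrophages (5) and glia and neurons (4) passed the threshold in any comparison. The median log2 fold changes in Dp1Tyb versus WT were -0.065 for cardiomyocytes, 0.093 for fibroblasts and cushion and 0.12 for erythroid cells. In Dp1Tyb versus Dp1TybDyrk1a+/+/- they were -0.096 for cardiomyocytes, 0.073 for fibroblasts and cushion, 0.15 for erythroid cells and 0.094 for glia and neurons, beside -0.072 for the members. In Dp1TybDyrk1a+/+/- versus WT the cardiomyocyte and the endothelial and endocardial medians were 0.060 and 0.066, and that of macrophages was -0.069. The log2 of the summed erythroid markers ran from 15.53 to 17.90 in WT, from 16.64 to 17.85 in Dp1Tyb and from 16.40 to 17.84 in Dp1TybDyrk1a+/+/-. The median of this erythroid sum was 17.35, 17.18 and 17.11 in the same groups, lower in Dp1Tyb than in WT, unlike the median log2 fold change. For cardiomyocytes the median of the sum was 18.82, 18.75 and 18.85. The part of cell composition in the values of the members was not tested.

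The promoters of these genes were read for the letters that E2F factors recognize, because E2F control is what many of the members are known to share. RefSeq promoters (GRCm38.p6, 250 bases before to 50 after the start) matched 46 of the 55 members. An E2F motif of 8 letters (TTTCGCGC, TTTGGCGC, TTTCCCGC or TTTGCCGC, on either strand) was found in 18 of the 46, which is 39.1%, beside 4.66% of 11103 promoters of genes tested and 2.605% of all 27025 promoters. With the 250 bases before the start alone it was found in 11 of the 46 (23.9%, beside 3.84% of genes tested). The cell cycle homology region (CHR) letters TTTGAA or TTCGAA, which mark many genes of G2 and mitosis, were found in 10 of the 46 (21.7%), beside 16.3% of genes tested. The 46 members and the tested genes are not matched in base composition. The following stretches, 5′ to 3′ on the strand of the gene, show the motif in members of different roles, with the E2F letters in capitals.
Orc1 (origin recognition, chr4:108579387-108579474, plus strand): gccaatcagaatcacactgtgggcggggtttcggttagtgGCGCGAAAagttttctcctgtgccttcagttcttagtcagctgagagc
Mcm5 (helicase ring, chr8:75109316-75109403, plus strand): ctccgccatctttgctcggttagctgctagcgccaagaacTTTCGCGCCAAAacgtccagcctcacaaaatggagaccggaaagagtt
Mcm6 (helicase ring, chr1:128359768-128359855, minus strand): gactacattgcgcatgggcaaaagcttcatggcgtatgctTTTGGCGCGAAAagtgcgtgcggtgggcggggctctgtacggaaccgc
Mcm7 (helicase ring, chr5:138171854-138171907, minus strand): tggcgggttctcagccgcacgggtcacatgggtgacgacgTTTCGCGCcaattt
Pola1 (polymerase alpha, chrX:93632246-93632333, minus strand): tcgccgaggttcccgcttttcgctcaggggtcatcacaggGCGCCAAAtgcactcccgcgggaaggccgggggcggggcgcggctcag
Rfc3 (clamp loader, chr5:151651179-151651258, minus strand): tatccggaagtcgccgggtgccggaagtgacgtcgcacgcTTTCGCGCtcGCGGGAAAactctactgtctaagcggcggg
Uhrf1 (chromatin copying, chr17:56304088-56304175, plus strand): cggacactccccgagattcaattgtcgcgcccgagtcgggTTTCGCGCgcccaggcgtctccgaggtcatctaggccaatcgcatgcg
Clspn (fork protection, chr4:126556961-126557009, plus strand): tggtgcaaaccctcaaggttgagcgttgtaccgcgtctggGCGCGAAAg

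In Mcm5 and Mcm6 overlapping matches on opposite strands make 1 run of 12 capitals. The motif of Pola1 begins at position -138 and that of Orc1 at -27 relative to the start, and that of Clspn lies at 22, in the transcribed part. Of the 7 members decreased in Dp1Tyb, Pola1 and Clspn held the letters and Mcm10, Dbf4, Prim1, Pcna and Rrm1 did not. The median log2 fold change in Dp1Tyb versus WT was -0.071 for the 18 members with the letters and -0.063 for the 28 without, with ranges of -0.13 to -0.0043 and -0.13 to 0.0069. In Dp1TybDyrk1a+/+/- versus WT the medians were -0.0092 and 0.0046. A match of letters is a description and not a binding site.

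Origin licensing genes, 8 in all, were lower in Dp1Tyb by small amounts and 0 passed the threshold in any comparison. All 8 had a log2 fold change below 0 against WT, with a median of -0.048, and 2 (Cdc6 and Gmnn) had an unadjusted P-value under 0.05, a count that here and in the role groups that follow stands beside the same 7.8%. Gmnn, which encodes geminin, the inhibitor of CDT1, had the lowest value of the group. Its log2 values were 9.17, 9.09, 9.01, 9.18 and 8.98 in Dp1Tyb hearts A3, A4, A6, A7 and A12, 9.20, 9.22, 8.91, 9.34 and 9.27 in Dp1TybDyrk1a+/+/- hearts A9, A14, A15, A17 and A18, and 9.08, 9.22 and 9.32 at the lowest, the median and the highest in WT. Hearts A6 and A12 were below all WT hearts, as was A15, and the other hearts overlapped. Against WT its log2 fold change was -0.13 with an SE of 0.053 (adjusted P-value of 0.25 in limma). Of the origin recognition genes, Orc1 was at -0.061 and Orc2, Orc3, Orc5 and Orc6 lay between -0.036 and -0.012.

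The genes of the MCM2-7 ring, the motor of the helicase, were all lower in Dp1Tyb than in WT, with log2 fold changes from -0.10 (Mcm7) to -0.034 (Mcm5), a median of -0.068 and 4 of 6 at an unadjusted P-value under 0.05, but 0 passed the threshold. Mcm7 (chr5:138164583-138172111) had log2 values of 11.23, 11.21, 11.15, 11.20 and 11.16 in Dp1Tyb hearts A3, A4, A6, A7 and A12, 11.24, 11.31, 11.13, 11.33 and 11.34 in Dp1TybDyrk1a+/+/- hearts A9, A14, A15, A17 and A18, and 11.24, 11.29 and 11.38 at the lowest, the median and the highest in WT. All 5 Dp1Tyb hearts were below all WT hearts, while among Dp1TybDyrk1a+/+/- hearts only A15 was. This gave a log2 fold change of -0.10 with an SE of 0.029 (adjusted P-value of 0.063). Against Dp1TybDyrk1a+/+/- it was -0.082 with an adjusted P-value of 0.20, which was 0.038 without A15. Mcm7 overlaps Cops6 and Ap4m1 on the opposite strand, and the strand setting of the counting is not given in the sources used here.

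Helicase activation held the member with the lowest adjusted P-value. Of its 9 genes, 8 were below WT in Dp1Tyb, with a median of -0.084, and Mcm10 and Dbf4 passed the threshold, while Cdc45 (-0.10), Ticrr (-0.10), Gins1 (-0.092) and Cdc7 (-0.084) had unadjusted P-values under 0.05. Mcm10 (chr2:4990724-5012791), which binds the helicase and is needed for it to start moving, had log2 values of 8.74, 8.73, 8.68, 8.75 and 8.70 in Dp1Tyb hearts A3, A4, A6, A7 and A12. In Dp1TybDyrk1a+/+/- hearts A9, A14, A15, A17 and A18 they were 8.83, 8.86, 8.80, 8.87 and 8.87, and in WT 8.784, 8.847 and 8.995 at the lowest, the median and the highest. All Dp1Tyb hearts were below all hearts of both other groups. The log2 fold change against WT was -0.13 with an SE of 0.028, a deposited value 8.9% lower (adjusted P-value of 0.0085 in limma). It passed the threshold in all 15 fits that left out 1 heart and in all 12 other alternatives. Against Dp1TybDyrk1a+/+/- it was -0.13 with an adjusted P-value of 0.052, and between Dp1TybDyrk1a+/+/- and WT it was -0.0074 with a 95% interval of -0.065 to 0.050.

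Dbf4 (chr5:8396969-8422725), which activates the CDC7 kinase, had log2 values of 9.92, 9.91, 9.94, 9.92 and 9.86 in Dp1Tyb hearts A3, A4, A6, A7 and A12, 9.99, 9.94, 10.02, 10.03 and 10.02 in Dp1TybDyrk1a+/+/- hearts A9, A14, A15, A17 and A18, and 9.93, 9.99 and 10.05 at the lowest, the median and the highest in WT. Of the Dp1Tyb hearts, 4 were below all WT hearts and all 5 were below all Dp1TybDyrk1a+/+/- hearts. Against WT its log2 fold change was -0.078 with an SE of 0.021 (adjusted P-value of 0.048), and 13 of 15 fits without 1 heart lost the call. Gins2, another subunit of GINS, was the exception in this group: it had log2 values of 8.72, 8.65, 8.78, 8.73 and 8.57 in Dp1Tyb, 8.69, 8.83, 8.57, 8.83 and 8.81 in Dp1TybDyrk1a+/+/- and 8.61, 8.68 and 8.77 at the lowest, the median and the highest in WT. The groups overlapped, and the log2 fold change of Dp1Tyb versus WT was 0.0022 with a 95% interval of -0.085 to 0.090.

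Among the 9 genes of the replicative polymerases, all were below WT in Dp1Tyb, with a median of -0.070. Those past the threshold were Pola1 and Prim1, of polymerase alpha with primase, which starts each strand. The other subunits of that enzyme, Pola2 (-0.041) and Prim2 (-0.070), did not pass it (adjusted P-values of 0.61 and 0.49 in limma). Pola1 (chrX:93304766-93632387), the catalytic subunit of polymerase alpha, had log2 values of 9.81, 9.77, 9.80, 9.75 and 9.74 in Dp1Tyb hearts A3, A4, A6, A7 and A12, 9.89, 9.89, 9.86, 9.95 and 9.91 in Dp1TybDyrk1a+/+/- hearts A9, A14, A15, A17 and A18, and 9.80, 9.85 and 9.94 at the lowest, the median and the highest in WT. Of the Dp1Tyb hearts 4 were below all WT hearts, and all 5 were below every Dp1TybDyrk1a+/+/- heart. The log2 fold change was -0.098 with an SE of 0.024 against WT (adjusted P-value of 0.028) and -0.13 with an SE of 0.028 against Dp1TybDyrk1a+/+/- (adjusted P-value of 0.030). The call was lost in 3 of 15 and in 7 of 10 fits without 1 heart. Pola1 is X-linked, and the balance of embryo sex differed between the groups.

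Prim1 (chr10:128015215-128030030), the catalytic subunit of primase, which lays the RNA primer, followed the same order. Its log2 values were 9.26, 9.19, 9.19, 9.26 and 9.15 in Dp1Tyb, 9.35, 9.36, 9.28, 9.36 and 9.36 in Dp1TybDyrk1a+/+/- and 9.23, 9.31 and 9.39 at the lowest, the median and the highest in WT. Hearts A4, A6 and A12 were below all WT hearts and all 5 were below the Dp1TybDyrk1a+/+/- hearts. Prim1 had a log2 fold change of -0.10 with an SE of 0.026 against WT (adjusted P-value of 0.033) and -0.13 with an SE of 0.030 against Dp1TybDyrk1a+/+/- (adjusted P-value of 0.040). The calls were lost in 6 of 15 and in 6 of 10 fits without 1 heart.

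Pole (chr5:110286319-110337468), the catalytic subunit of polymerase epsilon, which copies the leading strand, had the lowest log2 fold change of the polymerases, -0.13 with an SE of 0.037, but did not pass the threshold (adjusted P-value of 0.061). It had log2 values of 9.93, 9.86, 9.89, 9.94 and 10.02 in Dp1Tyb, 9.98, 9.94, 10.14, 9.99 and 10.05 in Dp1TybDyrk1a+/+/- and 9.98, 10.02 and 10.18 at the lowest, the median and the highest in WT. Heart A12, which was low for most members, was the highest Dp1Tyb heart here. Pold1 and Pold2, the catalytic and an accessory subunit of polymerase delta, had log2 fold changes of -0.0043 and -0.011, and Pold3 one of -0.11 (adjusted P-value of 0.15).

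**Figure D4:**
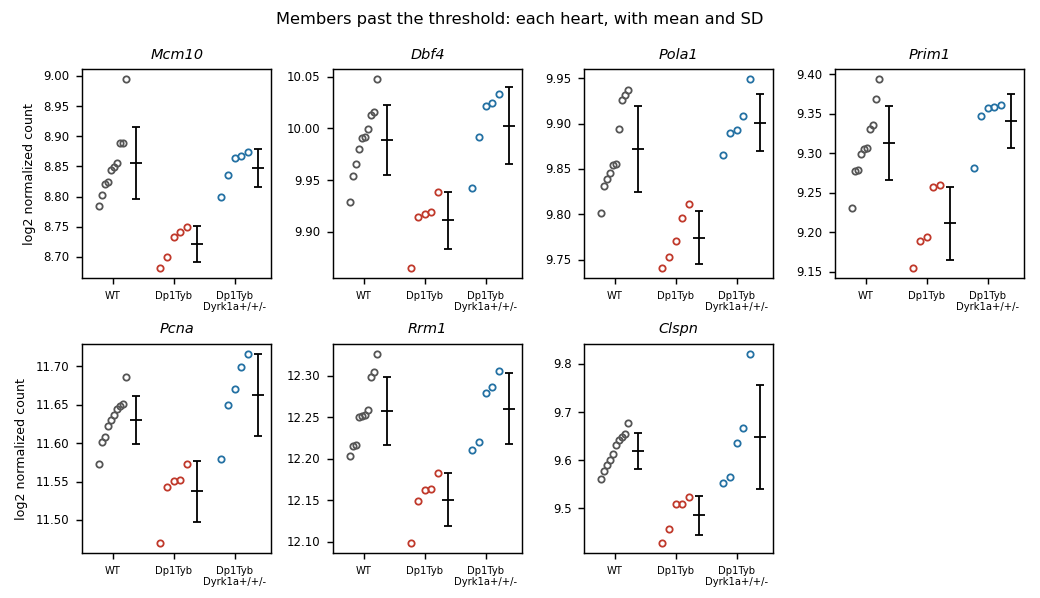
Log2 normalized counts of the 7 members that passed the threshold, each heart as a circle, with the mean and SD of each group beside them and an axis of its own for each gene. For Mcm10, Rrm1 and Clspn no Dp1Tyb heart reaches the WT range, and for Dbf4, Pola1, Prim1 and Pcna the highest Dp1Tyb heart or hearts reach its lower end.

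The clamp, its loader, the single-strand binding proteins and the enzymes of Okazaki fragments were 11 genes, all with a log2 fold change below 0 against WT and with a median of -0.047. Pcna (chr2:132249286-132253180), the clamp itself, was the only member of this group past the threshold. Its log2 values were 11.54, 11.55, 11.55, 11.57 and 11.47 in Dp1Tyb hearts A3, A4, A6, A7 and A12, 11.67, 11.65, 11.58, 11.70 and 11.72 in Dp1TybDyrk1a+/+/- hearts A9, A14, A15, A17 and A18, and 11.57, 11.63 and 11.69 at the lowest, the median and the highest in WT. Of the Dp1Tyb hearts 4 were below all WT hearts, all 5 were below the Dp1TybDyrk1a+/+/- hearts, and A17 and A18 were above all WT hearts. Pcna had a log2 fold change of -0.093 with an SE of 0.024 against WT (adjusted P-value of 0.036) and -0.13 with an SE of 0.028 against Dp1TybDyrk1a+/+/- (adjusted P-value of 0.030). The calls were lost in 9 of 15 and in 7 of 10 fits without 1 heart. A pseudogene, Pcna-ps2, was measured as well, and reads shared with it cannot be separated here.

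Within the same group the SE was largest for Rpa2, Fen1 and Rpa1. Rpa1, Rpa2 and Fen1 had log2 fold changes of -0.043, -0.047 and -0.046 in Dp1Tyb versus WT with SEs of 0.053, 0.072 and 0.060, and for all 3 A15 was the lowest of the 20 hearts and A10 the lowest of the WT hearts. Rfc5 (-0.074) and Lig1 (-0.074), which encodes the ligase that seals Okazaki fragments, had unadjusted P-values under 0.05. Rfc1 lay at -0.0083.

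Of the 5 genes of nucleotide supply, 4 were below WT in Dp1Tyb and only Rrm1 passed the threshold. Rrm1 (chr7:102441695-102469771), the large subunit of ribonucleotide reductase, which makes deoxyribonucleotides, had log2 values of 12.16, 12.10, 12.16, 12.18 and 12.15 in Dp1Tyb hearts A3, A4, A6, A7 and A12, 12.22, 12.21, 12.28, 12.29 and 12.31 in Dp1TybDyrk1a+/+/- hearts A9, A14, A15, A17 and A18, and 12.20, 12.25 and 12.33 at the lowest, the median and the highest in WT. The Dp1Tyb hearts were below all hearts of both other groups. Rrm1 had a log2 fold change of -0.11 with an SE of 0.024 against WT, a deposited value 7.1% lower (adjusted P-value of 0.016), and -0.11 with an SE of 0.028 against Dp1TybDyrk1a+/+/- (adjusted P-value of 0.054).

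The small subunit, Rrm2 (chr12:24708254-24714146), was 11.48, 11.47, 11.504, 11.506 and 11.45 in Dp1Tyb, below the lowest WT heart in every case, against 11.51, 11.62 and 11.69 at the lowest, the median and the highest in WT. In Dp1TybDyrk1a+/+/- it was 11.60, 11.60, 11.32, 11.69 and 11.75, of which 11.32 is heart A15. Against WT its log2 fold change was -0.13 with an SE of 0.046 (adjusted P-value of 0.15). This SE rests on 1 estimate of the spread shared by the 3 genotypes. The SD of Rrm2 was 0.055 in WT, 0.025 in Dp1Tyb and 0.16 in Dp1TybDyrk1a+/+/-, the group of A15. Against WT, Rrm2 passed the threshold in 0 of 15 fits that left out a WT or Dp1Tyb heart, all of which kept A15. It passed in 2 of the 12 other alternatives. Against Dp1TybDyrk1a+/+/- the log2 fold change of Rrm2 was -0.11 with an adjusted P-value of 0.28, which was 0.019 without A15. Tk1, the salvage enzyme thymidine kinase, was the other member with a value above 0: it had log2 values of 9.505, 9.544, 9.504, 9.488 and 9.438 in Dp1Tyb, 9.503, 9.56, 9.22, 9.56 and 9.67 in Dp1TybDyrk1a+/+/- and 9.32, 9.51 and 9.55 at the lowest, the median and the highest in WT. Its log2 fold change of 0.0069 had a 95% interval of -0.096 to 0.11. Tyms (-0.041) and Dut (-0.028), both of the thymidylate branch, did not pass the threshold.

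The genes that copy chromatin onto the new strands, Chaf1a, Uhrf1 and Dnmt1, were at -0.059, -0.079 and -0.071 against WT and did not pass the threshold. Uhrf1 (chr17:56303337-56323486), which recruits the methyltransferase DNMT1 to new DNA, had log2 values of 11.24, 11.19, 11.21, 11.26 and 11.13 in Dp1Tyb, 11.17, 11.31, 11.25, 11.31 and 11.35 in Dp1TybDyrk1a+/+/- and 11.24, 11.29 and 11.33 at the lowest, the median and the highest in WT. Hearts A4, A6 and A12 were below all WT hearts. The adjusted P-value was 0.14.

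All 4 genes of fork protection were lower in Dp1Tyb at an unadjusted P-value under 0.05, with log2 fold changes from -0.13 (Clspn) to -0.070 (Wdhd1) and a median of -0.085, the lowest of the 8 role groups. Clspn (chr4:126556957-126594533) encodes claspin, which couples the fork to the checkpoint kinase CHK1. Its log2 values were 9.52, 9.51, 9.46, 9.51 and 9.43 in Dp1Tyb hearts A3, A4, A6, A7 and A12, 9.55, 9.57, 9.82, 9.64 and 9.67 in Dp1TybDyrk1a+/+/- hearts A9, A14, A15, A17 and A18, and 9.56, 9.62 and 9.68 at the lowest, the median and the highest in WT. The Dp1Tyb hearts were below all hearts of both other groups, and A15 was above every other heart. Clspn had a log2 fold change of -0.13 with an SE of 0.034 against WT (adjusted P-value of 0.031) and -0.16 with an SE of 0.039 against Dp1TybDyrk1a+/+/- (adjusted P-value of 0.046). The calls were lost in 6 of 15 and in 7 of 10 fits without 1 heart, and without A15 the latter fold change was -0.12. Timeless (-0.096) and Tipin (-0.074), partners that hold the helicase and polymerases together, did not pass the threshold.

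For the 7 members decreased in Dp1Tyb, the log2 fold changes between Dp1TybDyrk1a+/+/- and WT lay between -0.0074 (Mcm10) and 0.033 (Pcna). Their 95% intervals reached no lower than -0.065 (Mcm10) and no higher than 0.099 (Clspn). These members were chosen for their values in Dp1Tyb versus WT, and both comparisons share the WT hearts, so the values are set side by side without a test.

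A further 31 genes of replication that are not among the 55 members were examined in the same fit. In Dp1Tyb versus WT 4 of them were decreased (Topbp1, Nasp, Atad5 and Pclaf) and 2 were increased (Donson and Chaf1b), beside the 1.27% and 1.81% of all genes tested. Donson and Chaf1b are the 2 of the 31 that lie in the duplicated region. Of the other 29, 24 had a log2 fold change below 0, beside 51.5% of all genes tested, with a median of -0.045. In Dp1TybDyrk1a+/+/- versus WT 0 of the 29 passed the threshold, with a median of 0.015, while Donson and Chaf1b were increased again, beside 0.712% of all genes tested that passed in either direction. In Dp1Tyb versus Dp1TybDyrk1a+/+/- Nasp, Dscc1, Atad5 and Pclaf were decreased, beside 0.738% of all genes tested.

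Among the other replication genes called, Pclaf, Atad5 and Dscc1 encode factors that work on the clamp, while the Rfc genes of the clamp loader were not called. Pclaf, which encodes a factor that binds PCNA, had log2 values of 11.04, 11.001, 11.01, 10.98 and 10.95 in Dp1Tyb hearts A3, A4, A6, A7 and A12, 11.07, 11.12, 11.16, 11.18 and 11.19 in Dp1TybDyrk1a+/+/- hearts A9, A14, A15, A17 and A18, and 11.05, 11.13 and 11.23 at the lowest, the median and the highest in WT. Every Dp1Tyb heart was below every heart of both other groups. Pclaf had a log2 fold change of -0.13 against WT (SE of 0.028, adjusted P-value of 0.012) and -0.15 against Dp1TybDyrk1a+/+/- (SE of 0.032, adjusted P-value of 0.030). Atad5, which unloads PCNA, was -0.14 against WT (SE of 0.033, adjusted P-value of 0.026) and -0.16 against Dp1TybDyrk1a+/+/- (SE of 0.038, adjusted P-value of 0.046), again with no overlap. Dscc1, a subunit of an alternative clamp loader, was -0.082 (adjusted P-value of 0.061) and -0.11 (adjusted P-value of 0.046) in the same comparisons.

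Nasp, a chaperone of histones, was -0.12 against WT (SE of 0.027, adjusted P-value of 0.021) and -0.16 against Dp1TybDyrk1a+/+/- (SE of 0.032, adjusted P-value of 0.018). Topbp1, which is needed to fire origins, was -0.097 against WT (adjusted P-value of 0.035).

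The genes in the duplicated region moved the other way. Chaf1b (chr16:93883900-93906115), the partner of Chaf1a in the chromatin assembly factor, had log2 values of 9.57, 9.56, 9.44, 9.54 and 9.54 in Dp1Tyb, 9.61, 9.62, 9.80, 9.58 and 9.64 in Dp1TybDyrk1a+/+/- and 9.15, 9.24 and 9.34 at the lowest, the median and the highest in WT. All mutant hearts were above all WT hearts, with log2 fold changes of 0.30 (SE of 0.035, adjusted P-value of 9.31e-06) and 0.42 (adjusted P-value of 5.16e-08). The Dp1Tyb hearts were also below the Dp1TybDyrk1a+/+/- hearts, by a log2 fold change of -0.12 (adjusted P-value of 0.13). Donson (chr16:91666856-91688932), which helps to assemble the CMG helicase, was at 8.64, 8.65, 8.66, 8.68 and 8.61 in Dp1Tyb, 8.65, 8.71, 8.50, 8.79 and 8.68 in Dp1TybDyrk1a+/+/- and 8.29, 8.36 and 8.46 at the lowest, the median and the highest in WT. Its log2 fold changes against WT were 0.28 and 0.30 (adjusted P-values of 2.52e-05 and 1.19e-05). Donson overlaps Son, on the opposite strand and also duplicated. Gins2, Tk1, Pcna, Pclaf and Nasp also overlap a measured gene on the opposite strand.

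**Figure D5:**
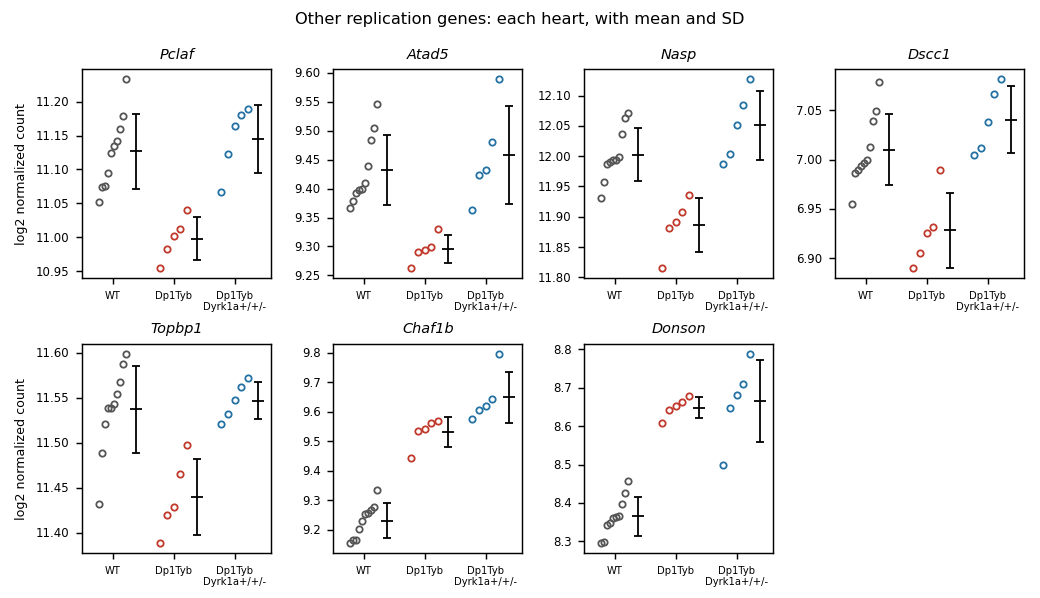
Log2 normalized counts of 7 replication genes outside the 55 members, each heart as a circle, with the mean and SD of each group and an axis of its own for each gene. Pclaf, Atad5, Nasp, Dscc1 and Topbp1 have their lowest group mean in Dp1Tyb, and the duplicated genes Chaf1b and Donson lie above WT in all 10 mutant hearts.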

How the data were processed

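RNA of 20 whole E13.5 mouse hearts (10 WT, 5 Dp1Tyb and 5 Dp1TybDyrk1a+/+/-) was sequenced as mRNA libraries. The submitters' processing notes name Trimmomatic 0.36, STAR 2.5.2a, RSEM 1.2.31, DESeq, DESeq2 and the build GRCm38, and give no role for them. The authors deposited 1 table of log2 normalized counts for 48795 genes by Ensembl identifier. Its values are labelled as log-transformed normalized counts of the 20 hearts. Genes of the duplicated region had a median fold of 1.03 in Dp1Tyb versus WT at mean counts of 10 to 100 and of 1.28 from 1000 up. The values may be shrunk, most at low counts, which is inferred from these folds alone. Log2 fold changes may thus be understated at any level. No read totals were analysed here, which leaves library depth unknown, and no interval from counts is given. No pair of hearts held identical values. The labels give no batch beyond lane and tie no heart to a litter, so the P-values take the 20 hearts as independent. For each gene 1 estimate of the spread is shared by the 3 genotypes. A heart that stands apart, such as A15, can therefore widen the SE of every comparison.

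Genes were named with GENCODE M39. The fit took 15304 genes, those whose mean normalized count reached 10, and used lmFit and trended eBayes of limma 3.58.1 (R 4.3.3) with a mean for each genotype and all 20 hearts together, since the authors' DESeq2 needs counts. A gene was called at a Benjamini-Hochberg adjusted P-value under 0.05 over all genes tested. The fit was tested on simulated data. Coordinates and promoters are those of RefSeq GRCm38.p6. Tables and plots used Python 3.11.15, pandas 2.3.3, numpy 2.4.6 and matplotlib 3.10.9.

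All 55 members were counted. Values in every heart are given for the 14 members that passed the threshold in any comparison or had the largest log2 fold change of their role group in either direction in Dp1Tyb versus WT. The other replication genes named passed the threshold or lie in the duplicated region. A result for 1 gene that this rule takes is not reported. The members and lists were chosen with earlier results of these data known. The alternatives were other filters, centring, quantile normalization, other limma settings, lane and Xist as covariates, leaving out each heart, and values within lanes. Lane and Xist together, and values within hearts of high or low Xist, were added after seeing the data.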

Additional observations from a re-analysis of the deposited data

Results flagged for a closer look

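In 72 groups of hearts (14 named members, 8 other replication genes, Dyrk1a and the mean over the members, each in 3 genotypes), 5 values lay farther from the rest of their group than Dixon's 95% limit allows. Chance gives about 1 in 20 such groups. WT heart A19 was high for Mcm7 (11.38, next 11.31) and for Mcm10 (8.995, next 8.888). WT heart A10 was low for Tk1 (9.319, next 9.460). Heart A15 of the Dp1TybDyrk1a+/+/- group was low for Prim1 (9.281, next 9.347), which lies within the WT range. Dp1Tyb heart A6 was low for Chaf1b (9.441, next 9.535) and still above all WT hearts.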

How the results depend on the processing

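The mean over the members differed by -0.070 to -0.055 in Dp1Tyb versus WT, by -0.0095 to 0.018 in Dp1TybDyrk1a+/+/- versus WT and by -0.083 to -0.055 in Dp1Tyb versus Dp1TybDyrk1a+/+/- in the fits that left out 1 heart, and within lane 7 the first and the last were -0.12 and -0.11. Counts over all genes tested are in parentheses. In Dp1Tyb versus WT 7 members were called (471). There were 3 (346) with no filter on low values, 21 (1422) with hearts weighted by quality, 3 (245) with Xist as a covariate, 12 (779) with the hearts of the 2 groups alone, 1 (185) with lane and Xist as covariates, and 1 to 7 (266 to 483) without 1 heart. In Dp1Tyb versus Dp1TybDyrk1a+/+/- 4 were called (178). There were 2 (100) with genes of a mean count of at least 1, 8 (273) with at least 100, 0 (76) with no filter, 8 (225) with each heart centred on its median, 2 (121) with quantile normalization, 17 (1247) with hearts weighted by quality, and 0 to 9 (30 to 302) without 1 heart. There were 0 with lane (29), with Xist (12), with both (4) and with the hearts of the 2 groups alone (3), where few genes were called at all. In Dp1TybDyrk1a+/+/- versus WT 0 were called in each of these fits. Beyond the number of genes or hearts in a fit, the cause was not tested. E2F letters were found in 18 member promoters, in 11 before the start alone and in 38 with the 6 letter core GGCGGG or GGCGCC, which 71.9% of genes tested also hold. No call of a named member changed its direction in any alternative. Of 14 named members, signs of uncalled values changed in 15, 27 and 4 of their fits in the 3 comparisons in the order of the first sentence. No paired analysis was possible because the replicate numbers were given in accession order. Depth is unknown. All differences, also those under about 0.1 on the log2 scale, rest on 5 hearts in each mutant group and 10 WT hearts.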
